A study of Homo sapiens with 4 samples.

Results

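The loci of 10 genes for proteins that liver cells secrete into plasma were examined for gains of H3K4me1 after depletion of LSD2. The genes are ALB, AFP, FGA, FGB, FGG, TTR, TF, SERPINA1, HP and AHSG. They lie in 7 loci, because ALB and AFP are neighbours and the 3 fibrinogen genes form a cluster. The members are the distinct peaks of the deposited list that overlapped a gene span extended by 20 kb on each side, by at least 1 bp. By this rule 31 of the 160601 distinct peaks were members, in windows that added up to 455 kb.

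The study used HepG2, an established human cell line from a liver tumour that still makes many plasma proteins. Its 4 libraries were a ChIP library for H3K4me1 and an input library from cells given a control siRNA, and the same pair from cells given an siRNA against LSD2 (gene KDM1B). Each group had 1 library, and the cells of all groups were grown in high-glucose medium and transfected with the same reagent. The list holds regions where H3K4me1 reads of the knockdown library exceeded those of the control library, so a peak means a gain in the knockdown library. The control siRNA targets GL3, a luciferase sequence. The level of KDM1B was not measured by these data. The library names in the file header carry different dates for the 2 ChIP libraries, so run and condition cannot be told apart.

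LSD2 removes methyl groups from lysine 4 of histone H3, and H3K4me1 marks enhancers and the flanks of active promoters. Plasma protein genes are among the most active genes of the hepatocyte. They are driven by promoters and enhancers that bind liver factors of the HNF1, HNF4, FOXA and C/EBP families. In the liver, H3K4me1 is found at such enhancers together with these factors.

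With 20 kb flanks, the 7 loci together did not carry a density of peaks that could be told from that of the list. They held 68.1 peaks per Mb (95% Poisson interval 46.3 to 96.7), against 56.2 peaks per Mb over the whole list. The ratio was 1.21 (0.824 to 1.72). The intervals here and below allow for counting error alone, as if each peak were an independent event. Of 43 bins of 10 kb at the loci, 21 held a peak, a share of 48.8% (95% Wilson interval 34.6 to 63.2%), beside 41.3% of all 10 kb bins. Only whole bins were counted, so the single peak of HP fell in none. That of AHSG crossed a bin border and counted in 2 bins. The interval treats bins as independent. Counts differed among the loci, from 11 peaks at ALB-AFP (92 kb) and 7 at the fibrinogen genes (90 kb) to 1 each at HP (47 kb) and AHSG (50 kb). The windows differ in length, and the intervals of the densities of all loci overlap. By edges in whole kb, the gene spans themselves held a peak in 4 of 7 loci, and the spans of TTR, SERPINA1 and HP held none. These edges are good to about 1 kb. The midpoint of the AHSG peak lay outside its span, and a peak ended 0.641 kb from the SERPINA1 span. Whether these peaks lie in their genes is not settled, so the counts inside spans are not firm. Over all spans, 16 peaks in 175 kb gave 91.4 peaks per Mb (52.3 to 148). The flanks held 15 peaks in 280 kb, which was 53.6 per Mb (30.0 to 88.4). These intervals overlap. Of 15 whole 10 kb bins inside the spans, 11 held a peak, a share of 73.3% (48.0 to 89.1%), again beside 41.3% of all bins. The spans of TTR and HP are too short to hold such a bin and are left out of that share.

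**Figure D1:**
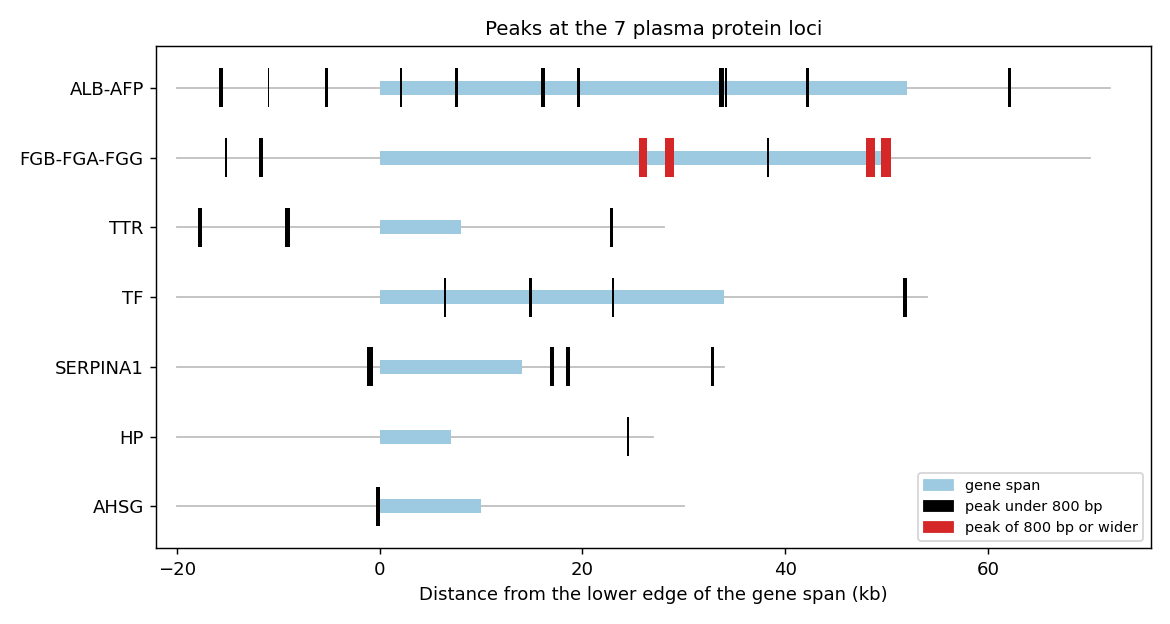
Positions of the 31 peaks at the 7 loci, drawn to scale on the x axis as distance in kb from the lower edge of each gene span. Blue bars are gene spans, grey lines the 20 kb flanks, black marks peaks under 800 bp and red marks peaks of 800 bp or wider. All 4 red marks lie in the fibrinogen cluster, and the spans of TTR, SERPINA1 and HP hold no mark.

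Positions are given on hg19 and counted from 1. The gene spans have edges in whole kb, so a distance from an edge is good to about 1 kb. No annotation of hg19 was used here, so exons, introns and the inner gene limits of the 2 clusters are not given. Strands and gene order come from RefSeq tables on GRCh38.p14, whose gene positions were not set against the peaks. All 10 genes matched the gene table and 8 the promoter table, with 11 start sites.

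Span edges where a gene starts lay in a peak for FGG and AHSG, and the promoters of these genes are shown. The edges are good to about 1 kb, so the peaks need not touch the bases shown. FGG lies on the minus strand, so its start is at the upper edge of the fibrinogen span, and AHSG lies on the plus strand and starts at the lower edge of its own. Both edges lay inside a peak. Each sequence is the 250 bases before the start site in RefSeq on GRCh38.p14, written 5′ to 3′ on the strand of the gene. Capitals mark matches to the 5 motifs searched.
FGG promoter (GRCh38.p14 chr4:154612657-154612906, minus strand): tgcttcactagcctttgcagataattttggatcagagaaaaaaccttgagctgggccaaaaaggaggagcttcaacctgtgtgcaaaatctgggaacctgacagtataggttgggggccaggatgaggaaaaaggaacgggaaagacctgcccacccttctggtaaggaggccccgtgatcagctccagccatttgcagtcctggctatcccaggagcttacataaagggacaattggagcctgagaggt
AHSG promoter (GRCh38.p14 chr3:186612810-186613059, plus strand): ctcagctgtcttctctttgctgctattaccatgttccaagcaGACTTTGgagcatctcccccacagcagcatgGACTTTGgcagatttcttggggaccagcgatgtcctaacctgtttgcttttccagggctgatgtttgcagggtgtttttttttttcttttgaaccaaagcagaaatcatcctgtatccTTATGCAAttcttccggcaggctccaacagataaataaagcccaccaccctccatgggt

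The motifs were searched on both strands by their letters alone. They were the HNF1 word GTTAAT, the C/EBP word TTGCNNAA, the FOXA word TGTTTAC, the HNF4A word CAAAGTC and the TATA box TATAAA. Among 35116 promoters of the table, 6.23% held the HNF1 word, 9.05% the C/EBP word, 2.98% the FOXA word, 2.91% the HNF4A word and 10.7% the TATA box. The AHSG promoter held the HNF4A word 2 times on the opposite strand, from -208 to -202 and from -177 to -171 relative to the start. It also held a C/EBP match, TTATGCAA, from -59 to -52. None of the 5 words was present in the 250 bases before FGG. ALB, which encodes serum albumin, had the HNF1 word from -61 to -56 and a C/EBP match, TTTGGCAA, from -125 to -118. AFP, which encodes the fetal counterpart of albumin, had the HNF1 word from -132 to -127, a C/EBP match from -221 to -214 and a TATA box from -29 to -24. FGA had the HNF1 word from -52 to -47, and FGB had one from -51 to -46 at the first of its 2 start sites. In all, 5 of the 8 genes held the HNF1 word before a start site, 6 the C/EBP word, 1 the HNF4A word, 1 the TATA box and 0 the FOXA word. The shares over all promoters count single starts, and of 11 member starts 6 held the HNF1 word and 7 the C/EBP word. Base composition was not allowed for. G and C made up 30% of the window before ALB, 31.6% before AFP and 32 to 33.2% before FGB. In the other member windows they made up 45.2 to 72.4%, and the median over all promoters was 58%. The matches fell on 14 distinct sites, as the windows before the 2 FGB starts overlap and share both of their sites. No match overlapped another before the same start. A match of letters is a description and does not show that a factor binds there.

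ALB and AFP, the albumin genes, carried the most peaks. ALB encodes the main carrier protein of plasma, and AFP encodes alpha-fetoprotein, which the fetal liver and many liver tumours make. The locus, chr4:74250000-74342000, held 11 peaks in 92 kb, or 119.6 per Mb (59.7 to 214). This was 2.13 times the density of the list (1.06 to 3.81), 2.22 times that of chromosome 4 and 2.04 times that of the 1 Mb on each side. Among windows of the same length, 7% over the list and 4.75% on chromosome 4 held at least 11 peaks. The median such window held 5 over the list and 4 on chromosome 4. The lower end of the ratio's interval lies just above 1, and this held for 1 of the 7 loci examined.

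Peaks lay in both flanks and the span of the ALB-AFP locus, and were sparser toward its upper end. Before the lower edge of the span, where ALB starts, lay 3 peaks, at 74254170-74254596 (427 bp), 74258955-74259135 (181 bp) and 74264601-74264883 (283 bp). The nearest of these ended 5.12 kb before the edge. The first peak inside the span, 74271994-74272166 (173 bp), began 1.99 kb after the edge and was the narrowest of all 31. It was followed by peaks at 74277411-74277721 (311 bp), 74285920-74286314 (395 bp) and 74289428-74289787 (360 bp). After a step of 13634 bp without a peak came a close pair, 74303422-74303945 (524 bp) and 74304066-74304239 (174 bp), with 120 bp between them. The last peak in the span was 74312056-74312342 (287 bp). Above it no peak was called over 19.6 kb, from 74312343 to 74331961, across the upper edge, where AFP ends. The upper flank, on the side of AFM, another albumin family gene, held 1 peak, 74331962-74332207 (246 bp). The span alone held 7 peaks in 52 kb, and 7.29% of windows of that length held as many or more. The median width at the locus was 287 bp, below the list median of 316 bp, so the peaks here were many and not wide. The median gap between neighbouring peaks was 6.29 kb, against 10.1 kb over the list.

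The density at ALB-AFP was also high in windows with wider flanks. With 50 kb flanks the locus held 19 peaks, at 125.0 per Mb (75.3 to 195), and 3.27% of windows of that length held as many. With 100 kb flanks, a width added after the peaks had been seen, it held 26, at 103 per Mb (67.4 to 151), and 6.49% of windows held as many. Each wider window contains the peaks of the narrower ones, so these values do not give the density of the outer ground alone. The density was lower with 100 kb than with 50 kb flanks. In the 1 Mb on each side of the locus it was 58.5 per Mb, close to the 56.2 of the list. The other 6 loci without ALB-AFP held 20 peaks, at 55.1 per Mb (33.7 to 85.1). That is 0.981 of the density of the list, the lowest ratio when each locus was left out in turn. Leaving out the densest locus must lower the ratio, and the pooled density could not be told from that of the list.

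**Figure D2:**
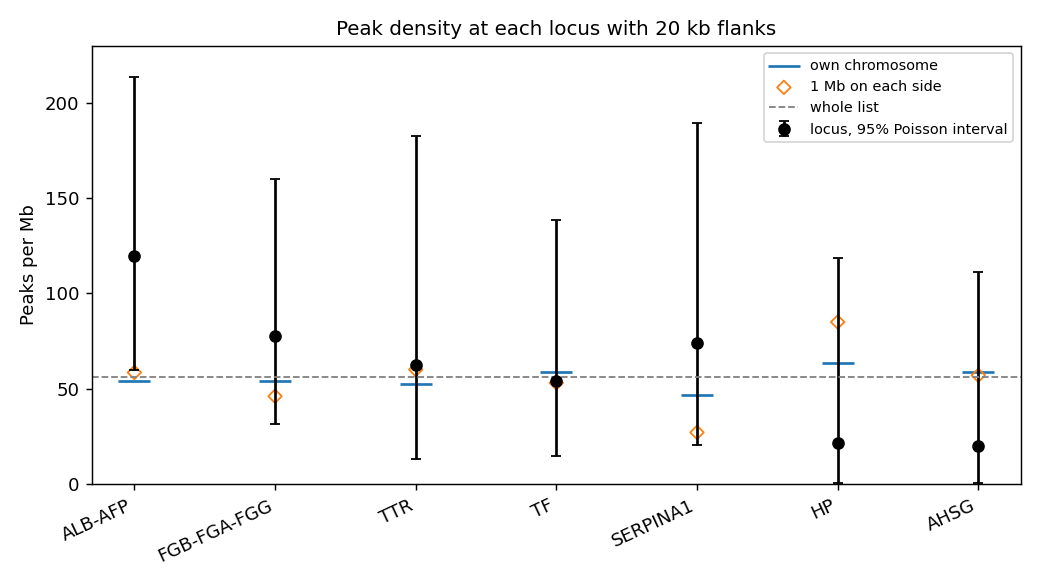
Peaks per Mb at each locus with 20 kb flanks (points) with exact 95% Poisson intervals for counting error. Blue bars give the density of the chromosome of the locus, orange diamonds that of the 1 Mb on each side and the dashed line that of the whole list. ALB-AFP is highest at 119.6 and its interval alone lies above the dashed line, while HP (21.3) and AHSG (20) are lowest with intervals that include it.

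The fibrinogen cluster stood out by the width of its peaks. FGB, FGA and FGG encode the chains of fibrinogen, the protein that thrombin turns into the fibrin of a clot. The locus, chr4:155464000-155554000, held 7 peaks in 90 kb, or 77.8 per Mb (31.3 to 160). At least 7 peaks were found in 28.9% of windows of this length, so the count was common. Of the 7 peaks, 4 were 858, 913, 909 and 979 bp wide. The widest peak at any of the other loci was 562 bp. Only 1.76% of the list was as wide as the narrowest of the 4, and 0.983% was as wide as the widest. The remaining 3 peaks at the locus were 191, 259 and 371 bp wide.

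The 4 wide fibrinogen peaks formed 2 pairs inside the span. The first pair, 155509538-155510395 and 155512155-155513067, lay near the middle of the cluster with 1759 bp between them. FGA lies between FGB and FGG in the gene table, but whether this pair lies in FGA was not analysed here. The second pair, 155531968-155532876 and 155533390-155534368, lay at the upper edge with 513 bp between them. The last of these contained the edge itself, where FGG starts, and was the widest of the 31. A narrow peak, 155522176-155522366 (191 bp), separated the pairs. The 4 wide peaks covered 3659 bp of a stretch of 24.8 kb. The FGB side was different. No peak was called from 155472495 to 155509537, a stretch of 37.0 kb that includes the lower edge, where FGB starts. The span held 5 peaks in 50 kb, and 19.7% of windows of that length held as many. Gaps as long as the one at FGB made up 12.3% of the gaps of up to 1 Mb in the list. A given place falls in such a gap more often than that, since long gaps cover more ground. The flank below the span held peaks at 155468732-155468990 and 155472124-155472494, on the side of PLRG1, a splicing factor gene. The upper flank held none.

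The 31 peaks had a median width of 350 bp (quartiles 252.5 and 414.5), against 316 bp (229 and 396) for the list. Of the members, 7 were narrower than the lower quartile of the list, 7 lay between it and the median, 8 between the median and the upper quartile, and 9 at or above the upper quartile. The share in the last class was 29.0% (95% Wilson interval 16.1 to 46.6%). It included the 4 wide fibrinogen peaks. Of the other 27 peaks, 5 (18.5%) were at or above the upper quartile and 7 below the lower one, and their median was 311 bp. Without the fibrinogen cluster the median was 329.5 bp over 24 peaks. A limit of 800 bp, chosen after the widths were seen, was reached by 4 of 31 members, 12.9% (5.13 to 28.9%), and by 2.29% of the list. All 4 lay in the fibrinogen cluster, and 0 of the other 24 peaks reached it, which allows a share of up to 12.5%. Of windows as long as the fibrinogen locus, 9.07% held at least 1 peak of this width and 0.126%, or 40 of 31747, held 4 or more. These values describe a pattern that was picked because it was seen. Peaks covered 4.98% of the fibrinogen locus, 2.14% of the other 6 loci together and 1.91% of the list's territory.

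**Figure D3:**
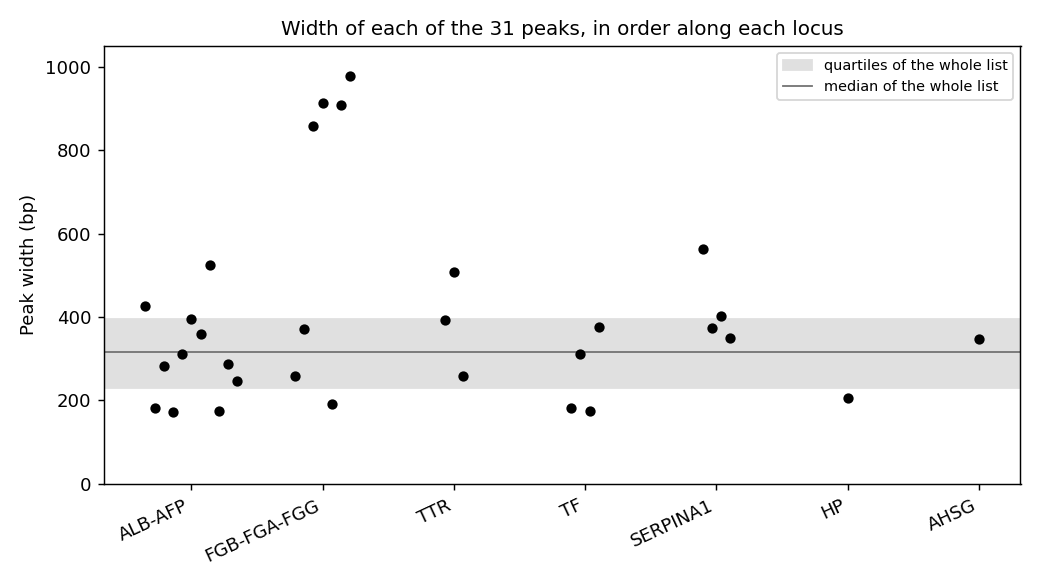
Width in bp of each of the 31 peaks, shown as 1 point per peak in order along its locus. The grey band spans the quartiles of the whole list (229 to 396 bp) and the line its median (316 bp). The 4 points between 858 and 979 bp are fibrinogen peaks, and no point of another locus exceeds 562 bp.

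AHSG carried a single peak, and it lay across the span edge where the gene starts. AHSG encodes fetuin-A, a carrier that keeps calcium phosphate in solution in plasma. The peak, 186329689-186330036 on chromosome 3 (348 bp), contained the lower edge of the span. Its midpoint lay just below that edge, by less than the rounding of the edge, so the start itself may lie outside the peak. The rest of the locus, chr3:186310000-186360000, was empty, and the peak-free stretch above the peak ran from 186330037 to 186387648, over 57.6 kb. Gaps this long made up 5.06% of the gaps in the list. Long gaps cover more ground, so a given place falls in one more often than that. Of all windows of 50 kb, 12.1% held no peak. With 1 peak in 50 kb the density was 20 per Mb (0.506 to 111), and 87.9% of windows of this length held at least 1. With 50 kb flanks the locus held 7 peaks, or 63.6 per Mb. The neighbour above is FETUB, a paralogue of AHSG.

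SERPINA1 had peaks on both sides of its gene span and none within the span. SERPINA1 encodes alpha-1-antitrypsin, the main inhibitor of neutrophil elastase in plasma. The locus, chr14:94823000-94877000, held 4 peaks in 54 kb, or 74.1 per Mb (20.2 to 190), and 35.8% of windows of this length held as many. The gene lies on the minus strand, so its outermost start is at the upper edge. The promoter table lists a second start farther inside, the one with the HNF1 word, from which these distances would be longer. Upstream of that edge lay 3 peaks, 94859839-94860211 (373 bp) at 2.84 kb, 94861396-94861797 (402 bp) at 4.40 kb and 94875632-94875981 (350 bp) at 18.6 kb. The 4th, 94841798-94842359 (562 bp), ended 0.641 kb beyond the other edge, at the end of the gene. The edges are good to about 1 kb, so this peak may reach into the gene. No peak was called from 94842360 to 94859838, the 17.5 kb between it and the nearest upstream peak. Gaps this long made up 32.7% of the gaps in the list. Among windows as long as the span, 48.6% held no peak. A count of 0 in this span allows up to 214 peaks per Mb. The 1 Mb on each side held only 27.0 peaks per Mb, and the ratio of the locus to it, 2.74, was the highest of the 7. This holds for 20 kb flanks, since with 50 kb flanks the locus still held 4 peaks, at 35.1 per Mb the lowest of the 7. Chromosome 14 as a whole carried 46.7 peaks per Mb.

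TF had 3 of its 4 peaks inside the gene span. TF encodes transferrin, which carries iron in plasma. The locus, chr3:133444000-133518000, held 4 peaks in 74 kb, or 54.1 per Mb (14.7 to 138), close to the density of the list, and 53.6% of windows of this length held as many. Inside the span lay 133470322-133470502 (181 bp), 133478711-133479021 (311 bp) and 133486912-133487085 (174 bp). The first of them began 6.32 kb above the lower edge. They were evenly spaced, with 8208 and 7890 bp between them. The 4th, 133515570-133515946 (377 bp), lay 17.6 kb above the span. The promoter table lists 2 start sites for TF, and the gene table gives a gene longer than the span used here. The lower edge is therefore not the start of its longest transcript. The lower flank was free of peaks, within a stretch of 47.6 kb from 133422709 to 133470321. By number, 7.70% of the gaps in the list were as long, and a given place falls in one more often than that.

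TTR lay in a stretch without a peak. TTR encodes transthyretin, which carries thyroxine and retinol-binding protein. The locus, chr18:29151000-29199000, held 3 peaks in 48 kb, or 62.5 per Mb (12.9 to 183), and 47% of windows of this length held as many. All of them lay in the flanks. Below the gene were 29153087-29153478 (392 bp) and 29161644-29162152 (509 bp), on the side of DSG2, and above it was 29193743-29194001 (259 bp), on the side of B4GALT6. The gap of 31.6 kb between the last 2 contained the whole span. Gaps this long made up 15.9% of the gaps in the list, and long gaps cover more ground than their number. The nearest peak to the span ended 8.85 kb below it. Of windows as long as the span, 64.7% held no peak, so an empty span of 8 kb was the usual case, and it allows up to 375 peaks per Mb.

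HP was the gene farthest from any peak. HP encodes haptoglobin, which binds free haemoglobin. The only peak of the locus, chr16:72068000-72115000, was 72112414-72112619 (206 bp), 17.4 kb above the span. The next gene above HP is HPR, a close paralogue, and the treatment of reads that match both was not stated. No peak was called from 72061178 to 72112413, over 51.2 kb. By number, 6.56% of the gaps in the list were as long, and a given place falls in one more often than that. With 1 peak in 47 kb the density was 21.3 per Mb (0.539 to 119), and 86.6% of windows of this length held at least 1. The surroundings were dense, with 85.0 peaks per Mb in the 1 Mb on each side, and the ratio of the locus to them, 0.250, was the lowest of the 7. With 50 kb flanks the locus held 6 peaks, or 56.1 per Mb. The empty span of 7 kb allows up to 429 peaks per Mb, and 68% of windows of that length held none.

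The distance from the start edge to the nearest peak varied among the genes whose start lies at an edge and whose strand the promoter table gives, TF aside. It was 0 for FGG and AHSG, where 0 means that the edge, good to about 1 kb, lay in a peak. It was 1.99 kb for ALB, 2.84 kb for SERPINA1 and 11.5 kb for FGB. These distances did not follow the number of peaks at the loci, since AHSG had 1 peak and the ALB-AFP locus 11. AFP and FGA lie inside their clusters, and their start sites on hg19 were not used here. For TTR and HP the strand was not taken from a table. The nearest peak lay 8.85 kb from the lower and 14.7 kb from the upper edge of TTR, and 24.4 kb and 17.4 kb from those of HP, which on either strand is farther than at FGB.

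**Figure D4:**
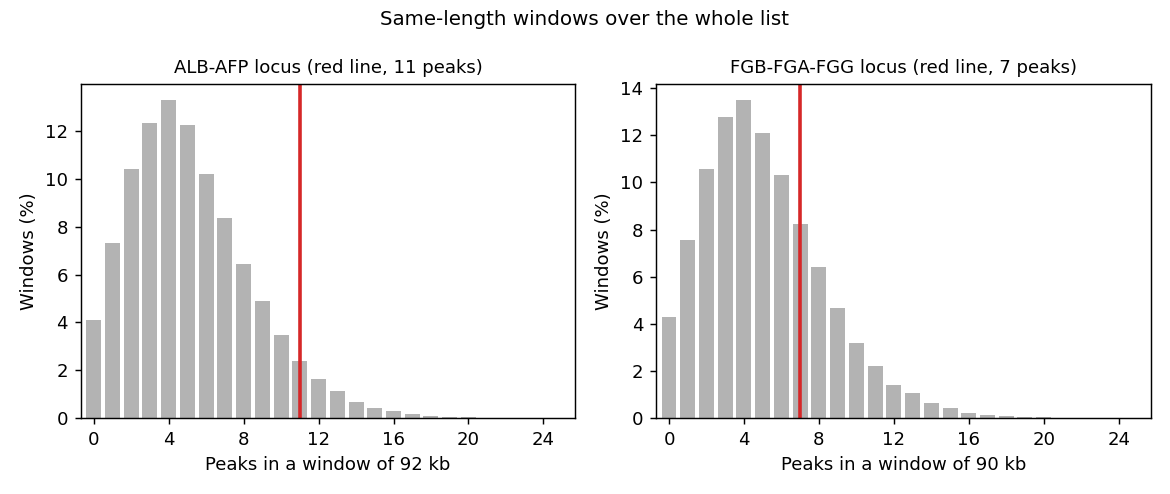
Share of windows in percent (y axis) that held a given number of peaks (x axis), for all windows of 92 kb and of 90 kb over the list. The red lines mark the ALB-AFP locus, whose 11 peaks were reached by 7% of windows, and the fibrinogen locus, whose 7 peaks were reached by 28.9%.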

How the data were processed

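The authors deposited 1 peak list, whose 3 columns give the chromosome, start and end of each peak (other values per peak are not used here, so all peaks count alike). Per the file headers, MACS was run on trimmed reads without duplicates, with the knockdown H3K4me1 library as treatment and the control H3K4me1 library as its control. The header gives a read and fragment length of 128 bp, a p-value cutoff of 1e-05 and an enrichment factor of 32, and names no input library. The submitters' processing notes name BWA and hg19. Read totals per library were not at hand, so the depth is unknown. Where no peak was called, H3K4me1 may have stayed level, fallen or been covered too poorly to tell.

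The 180505 rows were reduced to 160601 distinct peaks. Density was counted over 2859 Mb, from the first to the last peak of each chromosome without peak-free gaps over 1 Mb. Windows of the length of a locus were laid end to end over the same territory, as were 10 kb bins. Poisson intervals are exact and Wilson intervals were used for shares, both at 95%. The upper limits given for counts of 0 are neither of these. They are 3 divided by the length or by the number of peaks, so they are not comparable with the intervals. There was 1 library per group, so no test between conditions was made. The steps were checked on simulated peaks. All 10 genes and all their peaks are named. The genes, spans and motifs were chosen with earlier results of these data known. Other plasma protein genes were not counted, since this needed an hg19 annotation. Python 3.11.15, pandas 2.3.3, scipy 1.17.1 and statsmodels 0.14.6 were used.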

Additional observations from a re-analysis of the deposited data

Results flagged for a closer look

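Some member peaks were repeated as identical rows of the deposited list, a feature that the counts above do not use. Of the 31 peaks, 4 were listed 2 times each, 12.9% (95% Wilson interval 5.13 to 28.9%), beside 10.7% of the list. They were the 2 peaks below the fibrinogen genes, on the side of PLRG1, and the first 2 peaks inside TF. The peaks at ALB-AFP, TTR, SERPINA1, HP and AHSG and the 4 wide fibrinogen peaks were each listed 1 time. In the GRCh38.p14 gene table, SRPRB overlaps TF. Genes of the table were not set against the peaks. The reason for the repeated rows was not tested.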

How the results depend on the processing

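The density of the loci relative to the list stayed within its interval under every alternative run. It ranged from 1.63 without flanks to 0.981 without the ALB-AFP locus, the lone alternative below 1, and was 1.41 by covered bases. Without flanks the loci held 16 peaks (7 at ALB-AFP and 0 at TTR, SERPINA1 and HP). Of 15 whole 10 kb bins, 73.3% held a peak, beside 41.3% over the list. The interval, 48.0 to 89.1%, lies above that share but counts adjacent bins as independent. Most of these bins came from the ALB-AFP and fibrinogen spans, and the empty spans of TTR and HP were too short to enter. With 10 kb flanks TTR held 1 and HP 0. With 50 kb flanks the total was 58 (19 at ALB-AFP, 5 at TTR, 8 at TF, 4 at SERPINA1, 6 at HP and 7 at AHSG). With 100 kb flanks, added after the data were seen, it was 98 (26 at ALB-AFP, 13 at the fibrinogen genes, 14 at TTR, 11 at TF, 12 at SERPINA1, 9 at HP and 13 at AHSG). These counts follow from the length of the windows. Peaks at or above the median width numbered 17 (37.4 per Mb, 1.33 times the list under the same limit, in 30.2% of bins against 23.9% over the list), with 4 at ALB-AFP, 1 at TF and 0 at HP, since this keeps fewer peaks. A peak was held by 30.7% of 5 kb bins and 73.7% of 20 kb bins, beside 24.8% and 62.8% over the list. Of 104 values under alternatives, the other 74 stayed within 1.5-fold for counts, within the interval for densities and shares, or within 1 SD for width. Alternatives by score were not run, as the columns used hold none. No paired analysis was possible because no group had more than 1 library, and for the same reason none could be left out.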
